A study of Mus musculus with 52 samples.

Results

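The binding of CEBPB and of PPARG was compared in mouse brown adipose tissue (BAT), the fat that burns lipid to make heat, after 4 h of cold. The members were the 2 chromatin immunoprecipitation sequencing (ChIP-seq) peak lists titled as CEBPB in cold and the 3 titled as PPARG in cold, 5 of the 52 samples of the series. CEBPB was pulled down in knock-in mice that carry an HA-tagged CEBPB, with an antibody to the tag (Cell Signaling 3724), and PPARG in wild-type (WT) mice with an antibody to the protein itself (Cell Signaling Tech 2435). Target, antibody, genotype and input therefore cannot be told apart. The 3 H3K27ac lists in cold and the 3 at room temperature (RT) came from WT mice, and served as the readout of active chromatin. The labels name no age or sex, and do not state whether each replicate was its own animal, so p-values over libraries measure the spread of these samples alone, and that spread may be technical.

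PPARG is a nuclear receptor that binds DNA as a pair with RXR, classically at a direct repeat of AGGTCA with 1 base between its copies, and it is required for fat cells to form and to keep their identity. CEBPB is a leucine zipper factor of the C/EBP family that binds palindromes such as TTGCGCAA. It is switched on by cAMP, by glucocorticoids and by inflammatory signals, and acts early in adipocyte formation, before PPARG and its relative CEBPA. H3K27ac is acetylation of histone H3 that marks active promoters and enhancers.

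The CEBPB lists held 29900 and 33336 peaks on chromosomes 1 to 19 and X, and the PPARG lists 33272, 37891 and 39053. A site was a stretch covered by merged peaks of 1 target and held by at least 2 of its libraries, which gave 25813 CEBPB sites and 34658 PPARG sites. Overlap by at least 1 bp defined the classes. Of the CEBPB sites, 55.8% overlapped a PPARG site, and of the PPARG sites 40.6% overlapped a CEBPB site. These joined into 13967 shared sites, and left 11410 CEBPB-only and 20591 PPARG-only sites. Peak lists carry no read depth, so an absent peak means only that none was called.

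Promoter sequences show the letters that went with each class. The RefSeq promoter table (build GRCm38.p6, 32585 windows of 300 bp, from 250 bases before to 50 after a gene start) was searched on both strands for the palindrome TTGCGCAA, which 0.184% of all windows held. Among windows overlapped by a CEBPB-only site, 14 of 456 held it (3.07%), against 30 of 3784 under a shared site (0.793%), 2 of 6624 under a PPARG-only site (0.0302%) and 14 of 21721 with no site (0.0645%). Windows of alternative starts overlap, and the palindromes lay at 51 distinct places, 11 of them under CEBPB-only sites, 26 under shared sites and 1 under a PPARG-only site. Peaks of both CEBPB libraries covered the palindrome itself at 36 of the 51 places, at which 11 were CEBPB-only and 25 shared. The median GC content of the windows differed too, at 52.7% under CEBPB-only, 61.7% under shared and 63.3% under PPARG-only sites, and its part in these shares was not tested.

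Below are 98 upstream bases around the palindrome, from 60 bases before it to 30 after, for promoters chosen after their values were seen. Cep295 and Man1b1 are from CEBPB-only sites and had the highest fold enrichment of that class in CEBPB library 1. In library 2 Ccdc77 (35.6) was above Man1b1 (35.2). Rpia and Orm2 had the highest CEBPB fold under shared sites, in both libraries. Lep is the promoter of the leptin gene, and Dnajb6 is the only one under a PPARG-only site. Each is written 5′ to 3′ on the strand of its gene, with the palindrome in capitals.
Cep295, chr9:15357877-15357974, minus strand: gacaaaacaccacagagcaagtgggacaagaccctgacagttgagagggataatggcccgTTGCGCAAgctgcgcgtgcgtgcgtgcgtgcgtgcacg
Man1b1, chr2:25332644-25332741, plus strand: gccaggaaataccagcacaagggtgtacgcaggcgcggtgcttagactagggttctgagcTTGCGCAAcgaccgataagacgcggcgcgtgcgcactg
Rpia, chr6:70792183-70792280, minus strand: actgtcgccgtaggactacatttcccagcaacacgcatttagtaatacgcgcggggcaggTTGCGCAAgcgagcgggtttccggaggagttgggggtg
Orm2, chr4:63362269-63362366, plus strand: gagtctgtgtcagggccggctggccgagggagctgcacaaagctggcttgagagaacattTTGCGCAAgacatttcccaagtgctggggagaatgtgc
Lep, chr6:29060106-29060203, plus strand: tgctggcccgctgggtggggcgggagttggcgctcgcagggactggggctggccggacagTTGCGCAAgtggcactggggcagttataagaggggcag
Dnajb6, chr5:29735710-29735807, plus strand: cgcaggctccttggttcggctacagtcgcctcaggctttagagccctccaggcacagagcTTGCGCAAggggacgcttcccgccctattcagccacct

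The fold enrichment over each palindrome is the authors' deposited value at the summit, and it describes a peak within its own list. The first 4 promoters were picked for a high CEBPB fold, so its size there is no finding. At Cep295, with the palindrome at -126 from the gene start, CEBPB folds were 40.9 and 44.7 and no PPARG library held a peak. At Man1b1 (-39) they were 35.3 and 35.2, again with no PPARG peak, and the palindrome lay in a stretch that Man1b1 shares with its divergent neighbour AA543186. At Rpia (-45) CEBPB folds were 66.0 and 79.7 beside PPARG folds of 9.26, 10.5 and 10.6. At Orm2 (-120), an acute phase gene, they were 61.2 and 78.5, while PPARG library 1 held no peak and libraries 2 and 3 gave 8.21 and 5.69. At Lep (-55) CEBPB reached 27.7 and 36.2 and PPARG 8.04, 6.36 and 7.68. At Dnajb6 (-128) PPARG was at 23.8, 28.6 and 31.5 with no CEBPB peak. A shared palindrome at Canx, a chaperone of the endoplasmic reticulum, had CEBPB folds of 12.3 and 14.2 beside PPARG folds of 48.5, 52.6 and 55.7.

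The shorter form TTNCNNAA was far more common. It was in 60.3% of windows under CEBPB-only sites, 36.0% under shared, 24.6% under PPARG-only, 46.1% of windows with no site and 40.7% of all. Among windows under a site, only those under CEBPB-only sites held it more often than all windows did. Windows with no site were above that level too, at 46.1%, but below the 60.3% under CEBPB-only sites. Their median GC content was 49%, and its part here was not tested. The palindrome was less frequent in windows with no site than in all windows, and more frequent under both CEBPB-only and shared sites. The repeat of AGGNCA after 1 base was rare in all of these windows. It was in 0 of 456 windows under CEBPB-only sites, 0.344% under shared, 0.211% under PPARG-only and 0.384% of all. These letters did not separate the classes. A match is only a match of letters in a promoter window, and most sites lay far from promoters.

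At shared sites the summits of the targets lay apart by more than the summits of repeat libraries. Between a CEBPB and a PPARG library the median distance at shared sites was 82 to 86 bp in the 6 pairs. It was 17 bp between the CEBPB libraries and 23 to 24 bp between PPARG libraries at the same sites. Between targets 33.0% to 34.1% of summits were within 50 bp, against 82.3% within CEBPB and 70.9% to 71.5% within PPARG.

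Sharing was more frequent at strong sites of either target. Sites were ranked within their own lists by q value. In the strongest decile 80.7% of CEBPB sites and 68.0% of PPARG sites were shared. The PPARG share fell to 26.7% in the weakest decile, and the CEBPB share to 43.7% in the eighth decile before reaching 55.4% in the weakest. By library, 51.8% ± 0.759 (SD, n = 2) of CEBPB peaks overlapped a PPARG site and 38.9% ± 0.845 (SD, n = 3) of PPARG peaks a CEBPB site. The difference of 12.97 percentage points had a two-sided exact permutation p = 0.1, the smallest that 2 against 3 libraries allow. With each list cut to its strongest 29900 peaks, 46.2% and 45.8% of CEBPB peaks and 40.2%, 40.5% and 40.8% of PPARG peaks overlapped.

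**Figure D1:**
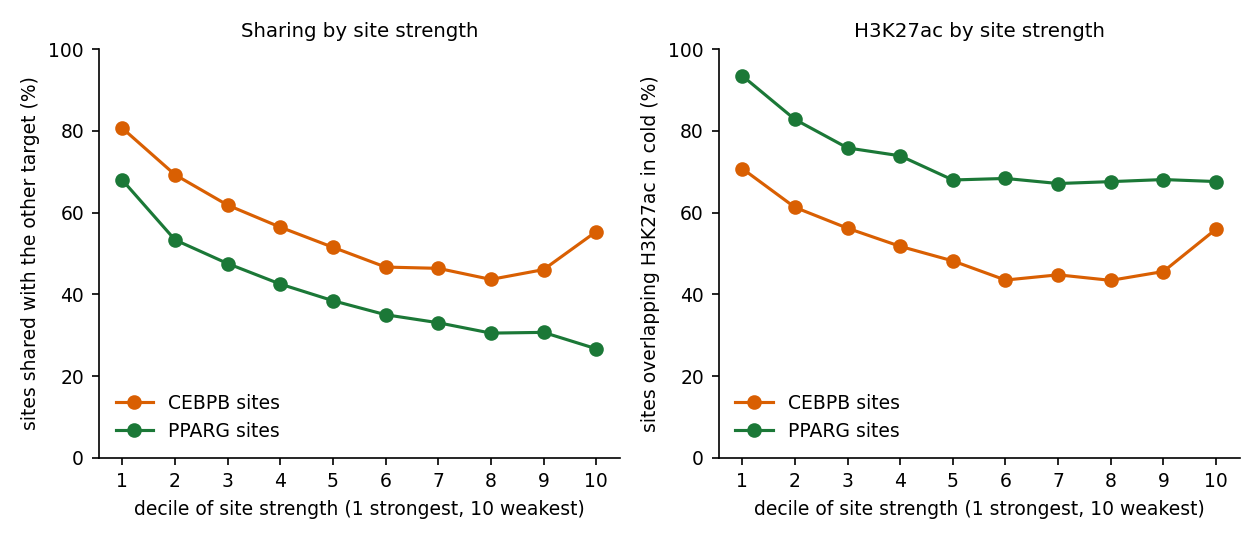
Share of CEBPB (orange) and PPARG (green) sites that overlap a site of the other target (left, %) and an H3K27ac region in cold (right, %), by decile of site strength from 1 (strongest) to 10 (weakest). The strongest decile was shared at 80.7% for CEBPB and 68.0% for PPARG, and H3K27ac covered 70.8% and 93.5% of these sites.

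H3K27ac separated CEBPB-only sites from both other classes. An H3K27ac region held by at least 2 of 3 WT libraries in cold overlapped 74.96% of shared sites, 72.2% of PPARG-only sites and 23.1% of CEBPB-only sites. In the 3 H3K27ac libraries one by one, CEBPB-only sites were covered at 24.01%, 19.3% and 24.4% (mean 22.6% ± 2.80, SD, n = 3). Shared sites were covered at 76.9%, 71.3% and 76.6%, and PPARG-only sites at 71.7%, 69.4% and 74.3%. The CEBPB-only values did not overlap those of either other class, while shared and PPARG-only values did overlap. Within each of the 3 libraries shared sites were covered more than PPARG-only sites. When only the summit had to lie in an H3K27ac region that order turned, at 60.9% of shared and 64.7% of PPARG-only sites. Libraries of H3K27ac at RT gave the same order, with 26.6% ± 3.17 (SD, n = 3) of CEBPB-only sites covered.

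**Figure D2:**
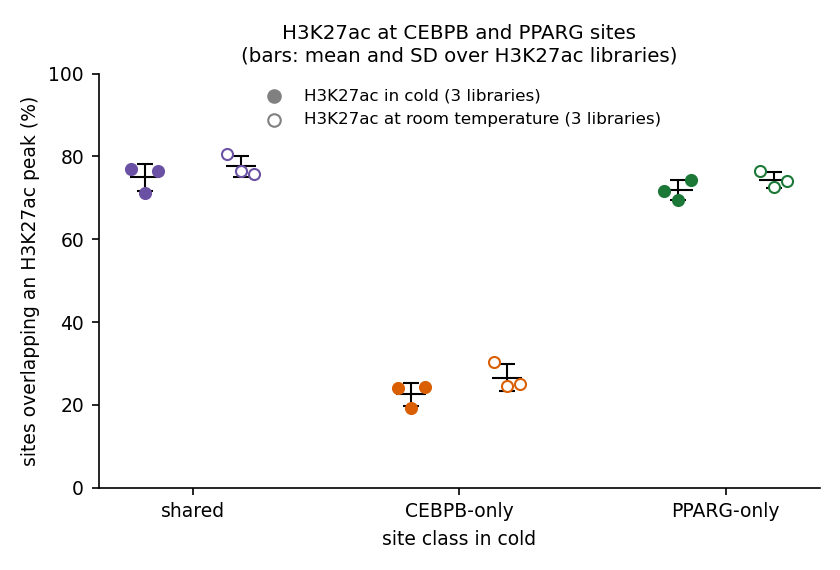
Share of sites of each class (%) that overlap an H3K27ac peak, 1 point per H3K27ac library (filled in cold, open at RT), with mean and SD. CEBPB-only sites lie between 19.3% and 30.3% in the 6 libraries, below every value of the shared and PPARG-only sites.

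The same difference appeared when each factor library was taken as 1 value. Of the peaks that overlapped no site of the other target, H3K27ac covered 21.96% and 21.7% in the CEBPB libraries and 72.4%, 69.3% and 68.3% in the PPARG libraries. The difference of -48.2 percentage points had an exact two-sided permutation p = 0.1, again the smallest possible. Peaks that did overlap the other target were covered at 75.1% ± 0.0260 (SD, n = 2) in CEBPB and 73.8% ± 1.597 (SD, n = 3) in PPARG libraries, which differed by 1.24 points (exact permutation p = 0.4). Within a library, overlapping peaks were covered more than the others in 5 of 5 libraries, by 3.15 to 53.4 points (exact sign-flip permutation p = 0.0625, the smallest for 5 pairs). Shared sites were wider, with a median of 1039 bp against 566 bp for CEBPB-only and 748 bp for PPARG-only sites. When only the summit had to lie in an H3K27ac region, the sign turned in all 3 PPARG libraries, at 64.2% against 65.6%, 62.1% against 62.4% and 61.3% against 61.4%, and the within-library difference ran from -1.34 to 47.1 points. Adjusted over the 8 exact tests of this kind by Benjamini-Hochberg, none of these fell below 0.133.

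Where H3K27ac was present at CEBPB-only sites it was also lower. The median deposited fold of the H3K27ac peak was 5.84, 5.70 and 5.55 in the 3 cold libraries at CEBPB-only sites, 10.7, 10.3 and 10.4 at shared sites, and 11.8, 12.1 and 12.6 at PPARG-only sites. The summit of a CEBPB-only site lay a median of 9.40 kb from the nearest H3K27ac region, against 0 kb for both other classes, and 49.0% of CEBPB-only summits were over 10 kb away.

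Site strength and promoter position were given beside the difference, since both varied by class. Among the sites with a mean rank in the top 10% of their lists, H3K27ac covered 34.6% of 621 CEBPB-only sites, 93.7% of 1130 shared sites and 92.8% of 1151 PPARG-only sites. Within 1 kb of a gene start it covered 64.0% of 405 CEBPB-only, 97.3% of 2175 shared and 95.9% of 4656 PPARG-only sites. Farther away it covered 21.2%, 69.8% and 63.0%. The gap between CEBPB-only and PPARG-only sites was therefore present among strong sites and on both sides of the 1 kb limit.

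The classes also differed in distance to genes. Distances to a start were taken for the 77.6% to 78.5% of sites whose nearest gene had a start in the promoter table. Of these, 4.57% of CEBPB-only sites, 19.8% of shared sites and 28.8% of PPARG-only sites had their summit within 1 kb of a start. The median distance was 28.7 kb, 18.1 kb and 10.6 kb in the same order. Over 100 kb from a start lay 20.8% of CEBPB-only, 15.2% of shared and 10.5% of PPARG-only sites.

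By library the near-start share of peaks without the other target was 4.79% and 4.84% for CEBPB, and 29.1%, 27.3% and 26.9% for PPARG. The difference was -23.0 points (exact permutation p = 0.1). Sharing went with opposite differences in the targets. Among CEBPB peaks, those that overlapped a PPARG site were nearer to starts, at 20.8% and 21.6%. Among PPARG peaks, those that overlapped a CEBPB site were farther away, at 20.02%, 19.7% and 19.2%. The summit was inside a protein-coding gene body at 57.3% of CEBPB-only, 55.3% of shared and 62.0% of PPARG-only sites.

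**Figure D3:**
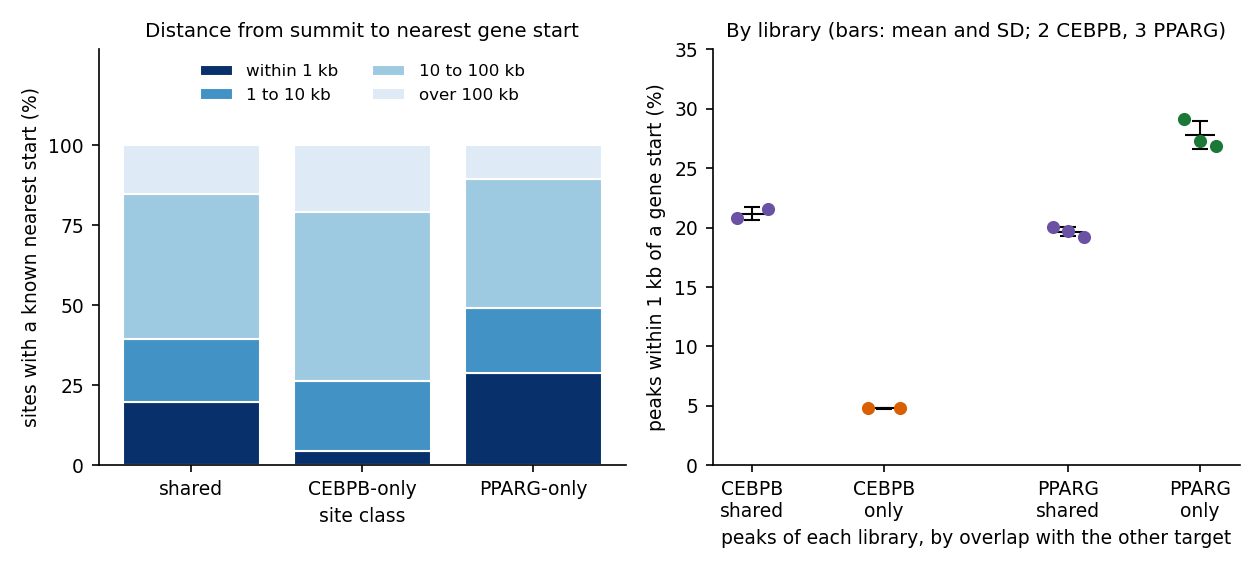
Left, distance from the summit to the nearest gene start for each class (% of sites whose nearest gene has a start in the table). Right, share of each library's peaks within 1 kb of a start (%), by overlap with the other target, with mean and SD. CEBPB peaks alone sit at 4.79% and 4.84%, and PPARG peaks alone between 26.9% and 29.1%.

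Other factors mapped in the series fell on the classes unevenly. CEBPA, the relative of CEBPB, was profiled only at RT, and its sites covered 63.5% of CEBPB-only, 87.6% of shared and 14.3% of PPARG-only sites. PPARG at RT covered 20.6%, 92.1% and 83.0% in the same order. PPARA in cold, the receptor for fatty acids that drives their oxidation, covered 0.657% of CEBPB-only, 38.1% of shared and 7.48% of PPARG-only sites. The coactivator PGC1A in cold covered 0.841%, 11.6% and 2.97%, and ERR1 in cold, from 1 library, 31.9%, 76.5% and 44.9%. CEBPA, CEBPB, PPARA and PGC1A were pulled down with the same tag antibody, and the part of the antibody in these overlaps was not tested. The third PGC1A library carries a CEBPA knock-in label and was grouped by its title.

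CEBPB-only sites that PPARG held at RT had more H3K27ac. It covered 38.4% of the 2356 such sites and 19.1% of the other 9054. Those held by CEBPA at RT were covered at 25.6% and the rest at 18.6%. Regions that gained H3K27ac in cold (in all 3 cold lists and no RT list, 769 in all) touched few sites of any class, 1.26% of shared, 0.543% of CEBPB-only and 0.631% of PPARG-only sites. Peaks that overlapped the other target touched them more often in 5 of 5 libraries, by 0.560 to 0.635 points (exact permutation p = 0.0625). Regions that lost H3K27ac in cold (the reverse, 1632 in all) showed the same direction in 5 of 5 libraries, by 0.177 to 0.499 points. They were touched by 1.97%, 1.74% and 1.46% of the classes. Lost regions were more numerous than gained ones, so these shares do not compare them region for region.

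The strongest sites of each class are given by the rank within their lists. The CEBPB-only site at chr6:136474932-136475888, 43.4 kb from the nearest gene body Atf7ip, had CEBPB folds of 63.3 and 90.9, and PPARG library 2 alone held a peak, with a fold of 5.68. The CEBPB-only site at chr11:28343307-28344295, 42.0 kb from Ccdc85a, had folds of 64.7 and 71.5, and again only PPARG library 2 held a peak (3.43). The site at chr15:81338459-81339809, inside Slc25a17, had folds of 60.2 and 68.5, beside 3.69 in PPARG library 2 alone. All of these were also CEBPA sites at RT.

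Among the PPARG-only sites of best rank, the first, chr4:41045566-41049194 in Aqp7, the channel that lets glycerol out of fat cells, had PPARG folds of 160, 186 and 205 and no CEBPB peak. A site in Crtc2, a coactivator of the cAMP response, at chr3:90253551-90255422 had 111, 124 and 149. Both had H3K27ac in cold and PPARA in cold, and neither was a CEBPA site at RT.

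Among shared sites, chr4:86688982-86692183 lay 20.2 kb from Plin2, a coat protein of lipid droplets. It had CEBPB folds of 78.1 and 97.1 and PPARG folds of 105, 113 and 140. A site 3.13 kb from Dusp6, a phosphatase of the ERK pathway, at chr10:99268101-99271601 had CEBPB folds of 86.0 and 102 and PPARG folds of 97.3, 92.7 and 89.3. The shared site with the best mean rank stood apart from these. At chr2:98666302-98667294, 1035 kb from the nearest gene body, it had CEBPB folds of only 4.17 and 3.63 and PPARG folds of 2.27, 1.98 and 2.10. It had no H3K27ac, and a site of every other factor listed above. No filter for regions prone to artefact signal was applied here, and whether this site is such a region was not tested.

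Loci were compared next, a locus being the body of a protein-coding gene plus 10 kb of flank before and after it. Of 21631 loci, 9947 held a CEBPB site and 13299 a PPARG site. Sites of both were in 9104 loci, CEBPB alone in 843 and PPARG alone in 4195. Of the 5814 loci with a CEBPB-only site, 4971 also held a PPARG site elsewhere in the locus. Loci with a CEBPB-only site thus mostly held a PPARG site as well, which 61.5% of all loci did. Of CEBPB-only summits, 19.6% lay 10 to 100 kb from any gene body and 9.91% farther, outside every locus.

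The peak-covered length of each locus, scaled to the total of its library, was tested with limma on 14363 loci. A larger share in CEBPB passed at 2533 loci (17.6% of those tested) and a larger share in PPARG at 5045 (35.1%), together 52.8% at an adjusted p under 0.05. Both CEBPB libraries lay above all 3 PPARG libraries at 26.4% of loci and below them at 42.9%. The median log2 difference over all loci, CEBPB minus PPARG, was -0.28. Without scaling it was -0.59, and 1174 loci then had a larger CEBPB length and 6401 a larger PPARG length, so differences below are relative to the library total. With every peak cut to a fixed width, 1736 of 14352 loci were larger in CEBPB and 4110 in PPARG. Over gene bodies alone these were 2201 and 4102 of 12144, and with replicate number as a block 1957 and 4233 of 14363. List counts under another setting are to be read against the counts of all loci at that setting. The log2 values carry an added 500 bp, so a locus with no peak of 1 target has no fold, and its lengths are given instead. Of the loci tested, 2787 had no CEBPB peak in any library and 489 no PPARG peak. These entered the test through 1 target alone, so passing it adds nothing to their lengths.

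H3K27ac followed the loci as it did the sites. Loci with a larger share in CEBPB had a median of 1.87, 1.77 and 1.80 kb of H3K27ac in the 3 cold libraries, and 23.3%, 25.6% and 23.3% of them had none. Loci with a larger share in PPARG had 4.08, 4.19 and 3.98 kb, and 3.77%, 3.79% and 3.17% had none. Loci that passed in neither direction lay between, at 2.80, 2.81 and 2.67 kb.

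Endothelial genes were the list with the largest share in PPARG. Of 13 endothelial loci tested, 12 had a larger share in PPARG and 1 in CEBPB, beside 35.1% and 17.6% of all loci. Only 5 of the 13 had peaks of both targets. The rest entered the test through 1 target alone, so their calls add nothing to their lengths. The list median was -2.30, and -1.82 over the 5 with peaks of both targets. Over all loci with peaks of both targets the median was -0.07. The loci of the list held 67 PPARG-only sites, 5 shared sites and 4 CEBPB-only sites. Of the 67, H3K27ac in cold covered 66, PPARG at RT 68.7%, and no CEBPA, PPARA or PGC1A site overlapped any. Over all PPARG-only sites H3K27ac covered 72.2%, PPARG at RT 83.0%, CEBPA 14.3%, PPARA in cold 7.48% and PGC1A 2.97%. ERR1 in cold, from 1 library, overlapped 16.4% of the 67, beside 44.9% of all PPARG-only sites. CEBPA, PPARA and PGC1A were mapped through the tag and PPARG was not. In whole tissue, binding in fewer cells and weaker binding per cell cannot be told apart, and the share of endothelial cells in each sample was not measured.

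Kdr (chr5:75932827-75979072), the main receptor for vascular endothelial growth factor, had 0 kb in both CEBPB libraries and 7.90, 7.73 and 7.57 kb in the PPARG libraries. Its 11 PPARG-only sites ran through the gene, and all 11 had H3K27ac. The best ranked, chr5:75921979-75923626 at the outer edge of the flank beyond its end, had folds of 16.4, 18.2 and 20.03, and one inside, chr5:75961660-75962709, had 19.8, 17.9 and 16.05. Eng, an endothelial coreceptor for TGF-beta, had 0 kb in CEBPB against 6.89, 6.11 and 5.11 kb, from 6 PPARG-only sites. Sox18, a vascular transcription factor, had 0 kb against 6.92, 7.28 and 5.75 kb, although over the gene body alone the difference did not pass (limma adjusted p = 0.132). CEBPB had no peak at these genes. They came from the largest differences among loci whose groups did not overlap, so that separation is no finding.

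The loci with the largest PPARG shares of all were covered in the same way, with few or no CEBPB peaks. Hspg2, which encodes the basement membrane protein perlecan, had 0 and 0.478 kb in CEBPB and 16.7, 16.1 and 16.6 kb in PPARG. Adgrf5, an adhesion receptor, had no CEBPB peak and 10.7, 9.95 and 10.8 kb in PPARG. Id3, an inhibitor of helix-loop-helix factors, had none against 6.68, 6.33 and 5.12 kb. H3K27ac in cold spanned 49.6 kb ± 2.53 (SD, n = 3) of Hspg2 and 58.1 kb ± 3.32 (SD, n = 3) of Adgrf5. The 1 endothelial locus with a larger share in CEBPB, Vwf, was named after its value was seen. It had 2.35 and 3.82 kb in CEBPB and 0.369, 0.920 and 0.951 kb in PPARG, and did not pass without scaling or with peaks cut to a fixed width.

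Markers of other cells that the tissue could hold were counted as well. Their small counts are read against all loci, of which 17.6% had a larger share in CEBPB and 35.1% in PPARG. Of 14 macrophage and lymphocyte markers 4 could be tested, 1 in each direction passing. Of 9 fibroblast and preadipocyte loci tested, 2 had a larger share in CEBPB and 4 in PPARG. Col1a1, the main collagen chain of fibroblasts, had no CEBPB peak and 2.27, 1.69 and 1.76 kb in PPARG, while Col1a2, its partner chain, had 0.945 and 0.761 kb in CEBPB and no PPARG peak. Skeletal muscle loci passed at 2 in each direction of 8, and Schwann cell and nerve loci at 1 in each direction of 7. The muscle loci larger in CEBPB, Myh1 and Myh4, had the same lengths (0.960 and 0.997 kb). The muscle list held 1 distinct CEBPB-only site, which is counted at both.

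Brown fat genes mostly held sites of both targets, with a shared site in 9 of the 10 marker loci, beside 34.9% of all loci. All 10 defining markers of brown fat had a peak of each target in at least 1 library, but Zic1 held no CEBPB site. Of the 10, 6 had a larger share in CEBPB and 3 in PPARG, beside 17.6% and 35.1% of all loci, and the list median was 0.33. Without scaling these counts were 3 and 4. Peaks of both targets were at 11087 of the 21631 loci of all genes, so their presence at these markers does not check the tissue label. The 10 loci held 42 shared, 52 CEBPB-only and 51 PPARG-only sites. H3K27ac covered 26 of those 52 CEBPB-only sites, beside 23.1% of all CEBPB-only sites.

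Ucp1 (chr8:83290348-83298456), the uncoupling protein that makes the heat, had 8.07 and 9.96 kb in CEBPB and 5.79, 5.11 and 5.21 kb in PPARG, a log2 difference of 0.69 ± 0.12 (SE; limma adjusted p = 0.00565), which did not pass without scaling (0.21). The groups did not overlap, with CEBPB above PPARG as at 26.4% of all loci. Its strongest sites were shared and upstream. At -4.675 kb (chr8:83283613-83286481) PPARG folds were 88.1, 91.5 and 102 beside CEBPB folds of 21.8 and 29.7, and at -2.55 kb (chr8:83287310-83290533) they were 53.7, 47.8 and 53.8 beside 30.6 and 39.5. The 4 CEBPB-only sites of the locus lay inside the gene and were weak, with folds from 3.57 to 9.56. None of these 4 was a site of PPARG or CEBPA at RT, nor of PPARA or PGC1A in cold.

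Dio2, a deiodinase that turns thyroid hormone into its active form, had 3.62 and 5.15 kb in CEBPB and 0.892, 1.12 and 0.980 kb in PPARG, a log2 difference of 1.69 ± 0.18 (SE; adjusted p = 0.00145). A shared site at its start (chr12:90738712-90739660, summit at -0.065 kb) had CEBPB folds of 36.8 and 46.5 and PPARG folds of 4.88, 7.34 and 7.32. A CEBPB-only site 3.42 kb into the gene (chr12:90735343-90736010) had 23.9 and 36.2 with no PPARG peak. CEBPA at RT and H3K27ac in cold were at that site as well.

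Ppargc1a, which encodes PGC1A, the coactivator of mitochondrial genes, held the most CEBPB-only sites of the markers. It had 31.3 and 30.7 kb in CEBPB and 13.7, 11.5 and 13.3 kb in PPARG, a log2 difference of 1.25 ± 0.09 (SE; adjusted p = 0.000721). The locus held 11 shared, 18 CEBPB-only and 6 PPARG-only sites. H3K27ac covered 10 of the 11 shared sites and 2 of the 18 CEBPB-only sites. A shared site in the gene at chr5:51867514-51869079 had CEBPB folds of 49.8 and 65.3 and PPARG folds of 23.0, 27.4 and 33.2.

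Pparg, the gene of the receptor itself, had 19.3 and 18.4 kb in CEBPB and 9.13, 8.10 and 7.57 kb in PPARG (log2 difference 1.15 ± 0.09, SE; adjusted p = 0.000864). Its 12 CEBPB-only sites were unlike those of Ppargc1a in that H3K27ac covered 10 of them and CEBPA at RT 8. At the second group of starts (chr6:115420648-115422327) a shared site had CEBPB folds of 45.8 and 48.3 and PPARG folds of 40.8, 37.4 and 49.8. A shared site 2.57 kb inside (chr6:115424141-115425148) had 66.5 and 79.8 in CEBPB and 6.89, 6.60 and 7.32 in PPARG. Cox8b, a subunit of cytochrome oxidase found in brown fat and muscle, went the other way, with 1.28 and 1.22 kb in CEBPB and 3.09, 3.27 and 3.33 kb in PPARG (-1.09 ± 0.11, SE; adjusted p = 0.00122).

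**Figure D4:**
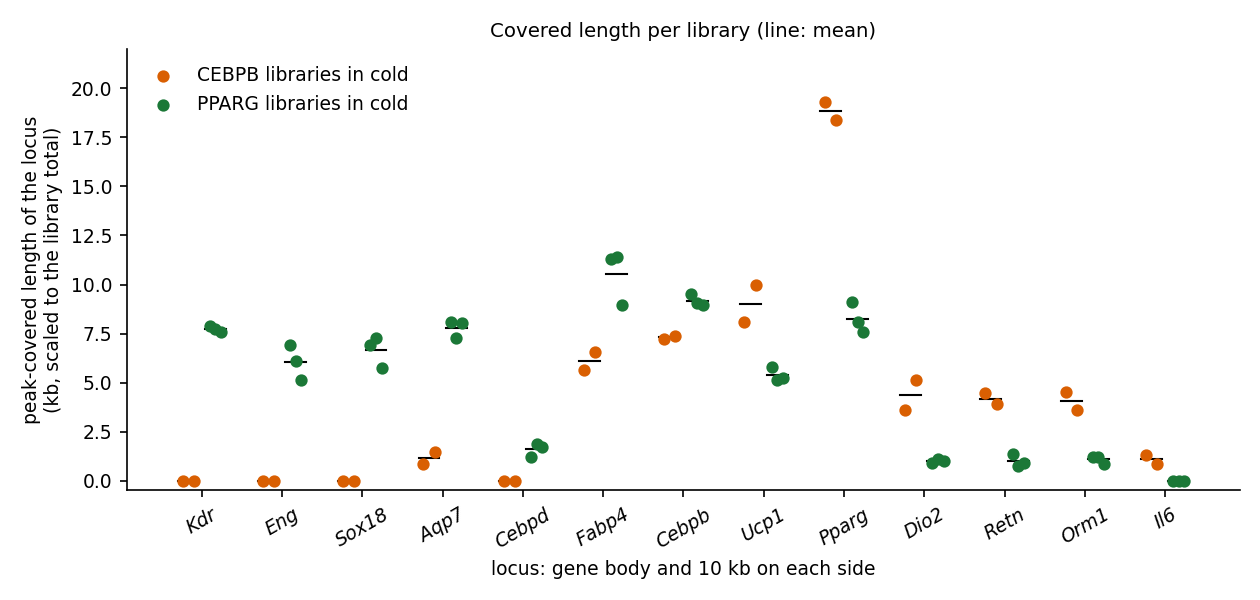
Peak-covered length (kb, scaled to the library total) at 13 loci, 1 point per library, CEBPB in orange (2) and PPARG in green (3), with the mean as a line. CEBPB has no peak at Kdr, Eng, Sox18 and Cebpd and PPARG none at Il6. The groups do not overlap at any of these 13 loci, which were picked from the named ones. Of all loci tested, CEBPB lay above PPARG without overlap at 26.4% and below at 42.9%.

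In the C/EBP family 3 of 6 loci had a larger share in PPARG and 1, Cebpg, in CEBPB. Over all loci these shares were 35.1% and 17.6%. The list median was -0.01, and Cebpg differed by 0.32 ± 0.08 (SE, limma adjusted p = 0.0216). Cebpb had 7.22 and 7.38 kb in CEBPB and 9.496, 9.04 and 8.97 kb in PPARG (-0.31 ± 0.07, SE; adjusted p = 0.0127). That sign turned over the gene body alone (0.07) and with peaks cut to a fixed width (0.39). The call was lost with the replicate block (adjusted p = 0.0666) and without CEBPB library 1 (0.0671). All 3 Cebpb sites were shared. Cebpa had 3.81 and 4.27 kb against 4.85, 6.14 and 5.57 kb (-0.40 ± 0.12, SE; adjusted p = 0.0405), a call lost with the replicate block (adjusted p = 0.0789), over the gene body (0.248), with a fixed peak width (0.754) and in 4 of the 5 fits without 1 library (0.0523 to 0.149). Cebpd, a relative that acts beside CEBPB early in adipogenesis, had no CEBPB peak and 1.22, 1.87 and 1.73 kb in PPARG. Its strongest PPARG-only site (chr16:15886700-15888398) had folds of 17.1, 17.4 and 18.4.

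Of the 6 PPAR and RXR receptor loci, 3 had a larger share in PPARG, 1 (Pparg) in CEBPB, and 2 did not pass. Over all loci 35.1% had a larger share in PPARG and 17.6% in CEBPB. Rxra, the DNA-binding partner of PPARs, had 1.95 and 1.88 kb in CEBPB and 6.54, 8.01 and 6.96 kb in PPARG (-1.66 ± 0.11, SE; adjusted p = 0.000674). Ppara had 3.79 and 3.46 kb against 8.66, 8.56 and 8.08 kb (-1.12 ± 0.08, SE). The groups did not overlap at Rxra and Ppara, with CEBPB below PPARG as at 42.9% of all loci.

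Of 30 PPAR target genes tested, 14 had a larger share in PPARG and 5 in CEBPB, beside 35.1% and 17.6% of all loci, with a median of -0.50 beside -0.28. With a fixed peak width 6 and 4 passed and the median was -0.10, beside -0.17 over all loci. Without scaling 20 and 1 passed, and with the replicate block 10 and 2. Aqp7 had 0.821 and 1.45 kb in CEBPB and 8.10, 7.27 and 8.04 kb in PPARG (-2.37 ± 0.18, SE; adjusted p = 0.000812). Slc27a1, a fatty acid transporter, had 1.10 and 1.65 kb against 5.46, 5.38 and 4.87 kb. Angptl4, a secreted inhibitor of lipoprotein lipase, had 1.88 and 2.83 kb against 7.22, 6.28 and 6.04 kb (-1.31 ± 0.17, SE), which with a fixed peak width shrank to -0.31 and did not pass.

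Fabp4, the fatty acid binding protein of fat cells, had 5.63 and 6.53 kb in CEBPB and 11.3, 11.4 and 8.93 kb in PPARG (-0.74 ± 0.14, SE; adjusted p = 0.00729). All 4 of its sites were shared, and with a fixed peak width the difference was 0.35 and did not pass. Plin1, a coat protein of lipid droplets, had 4.54 and 5.14 kb against 8.50, 7.17 and 7.53 kb (-0.62 ± 0.11, SE), not passing with a fixed peak width. Pdk4, the kinase that shuts pyruvate dehydrogenase in fasting, had more in CEBPB, 6.81 and 5.72 kb against 3.53, 2.87 and 3.03 kb (0.89 ± 0.13, SE; adjusted p = 0.00338), not passing over the gene body alone. The groups did not overlap at Fabp4, Plin1 and Pdk4. Of all loci, CEBPB lay above PPARG without overlap at 26.4% and below at 42.9%.

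Of 24 fatty acid oxidation loci, 11 had a larger share in PPARG and 2 in CEBPB (median -0.53), and of 19 oxidative phosphorylation loci 9 and 4 (median -0.55, and -0.35 over the 16 with peaks of both), again beside 35.1% and 17.6% of all loci. The fatty acid oxidation counts were 2 and 2 with a fixed peak width (median -0.05), 5 and 2 with the replicate block, 17 and 0 without scaling, and 6 and 2 without CEBPB library 2 or PPARG library 3. The oxidative phosphorylation counts were 4 and 4 with a fixed peak width, 6 and 2 with the block and 12 and 1 without scaling. Etfdh, which passes electrons from fatty acid oxidation to the respiratory chain, had no CEBPB peak and 1.67, 1.68 and 1.66 kb in PPARG. Etfb, a subunit of the flavoprotein that feeds it, had 1.52 and 2.68 kb against 6.84, 6.39 and 5.78 kb, which did not pass with a fixed peak width. Ndufv1, a subunit of complex I, had none against 1.17, 0.911 and 1.08 kb. All 27 PPARG-only sites of the oxidative phosphorylation list were PPARG sites at RT too, and PGC1A in cold was at 44.4% of them. Over all PPARG-only sites these shares were 83.0% and 2.97%.

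Acute phase and inflammatory genes formed the list with the largest share in CEBPB. Of 16 loci tested, 12 had a larger share in CEBPB and none in PPARG, beside 17.6% and 35.1% of all loci. The median was 0.78, or 0.65 over the 14 with peaks of both targets. The counts were 6 and 1 without scaling, 6 and 1 with a fixed peak width, and 5 and 2 over gene bodies alone, where 13 were tested. Over gene bodies the list was not first. Its median there was 0.43, below brown fat markers (1.17), white adipocyte genes (0.63) and macrophage and lymphocyte genes (0.49). The 22 distinct shared sites of the acute phase list were all CEBPA sites at RT, beside 87.6% of all shared sites. H3K27ac covered 17 of them (77.3%), near the 74.96% of all shared sites. Of the 9 distinct CEBPB-only sites H3K27ac covered 1, beside 23.1% of all CEBPB-only sites.

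Il6, the gene of the cytokine interleukin 6, had 1.31 and 0.862 kb in CEBPB and no PPARG peak. Its CEBPB-only site at the start (chr5:30012751-30013405, summit at -0.121 kb) had folds of 10.6 and 8.01 and no H3K27ac. Orm1, which encodes an acute phase glycoprotein, had 4.50 and 3.59 kb in CEBPB and 1.19, 1.22 and 0.869 kb in PPARG (1.51 ± 0.17, SE; adjusted p = 0.00165), which did not pass over the gene body alone (0.42). Its shared site at chr4:63344022-63344947 had CEBPB folds of 82.7 and 109, against 5.17 and 4.79 in PPARG libraries 1 and 3 and no peak in library 2. Saa2, serum amyloid A2, had 2.68 and 2.53 kb against 0.882, 0.757 and 0.956 kb. These loci overlap close relatives (Orm2 and Saa1), so peaks are counted for both.

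Of 8 white adipocyte loci 4 had a larger share in CEBPB and 1 in PPARG, beside 17.6% and 35.1% of all loci. The counts were 2 and 3 without scaling, and 2 and 0 with a fixed peak width, with the replicate block and in 4 of the 5 fits without 1 library, all but that without PPARG library 1. Retn, the adipokine resistin, had 4.46 and 3.89 kb in CEBPB and 1.36, 0.736 and 0.908 kb in PPARG (1.66 ± 0.21, SE; adjusted p = 0.00216). A shared site 8.77 kb before its start (chr8:3645674-3647639) had CEBPB folds of 43.6 and 49.9 and PPARG folds of 27.3, 21.5 and 27.3. Lep had 1.56 and 1.47 kb against 0.971, 0.818 and 0.840 kb (0.55 ± 0.14, SE; adjusted p = 0.0205), a call that was lost without scaling (adjusted p = 0.286), with a fixed peak width (0.386), with the replicate block (0.114) and in 4 of the 5 fits without 1 library (0.0564 to 0.0873). H3K27ac spanned 0 kb of the Lep locus in cold.

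Of 24 cAMP and immediate early loci, 11 had a larger share in PPARG and 3 in CEBPB, beside 35.1% and 17.6% of all loci. With a fixed peak width the counts were 6 and 3, beside 4110 and 1736 of all 14352 loci tested. Without scaling they were 16 and 1, beside 6401 and 1174 of all 14363. Maff, a small MAF factor, had 0.650 and 0.613 kb in CEBPB and 3.96, 3.92 and 4.46 kb in PPARG (-2.03 ± 0.12, SE; adjusted p = 0.000620), while Pde4d, a cAMP phosphodiesterase, had 38.1 and 34.99 kb against 16.2, 18.01 and 17.4 kb (1.07 ± 0.07, SE). Of 16 glucocorticoid response loci, 6 had a larger share in PPARG and 4 in CEBPB, near the 35.1% and 17.6% of all loci. These counts were 10 and 0 without scaling and 2 and 3 with a fixed peak width. Sgk1, a kinase induced by glucocorticoids, had 0.847 and 0.597 kb in CEBPB and 5.82, 6.24 and 5.84 kb in PPARG. Fkbp5, a chaperone of the glucocorticoid receptor, had 6.26 and 5.22 kb against 3.28, 3.28 and 3.51 kb (0.69 ± 0.11, SE; adjusted p = 0.00461), which did not pass without scaling.

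Of 16 insulin and growth hormone loci 5 passed in each direction, beside 17.6% for CEBPB and 35.1% for PPARG over all loci. Without scaling 1 passed for CEBPB and 6 for PPARG. Ghr, the growth hormone receptor, had 10.8 and 11.9 kb in CEBPB and 4.85, 5.14 and 4.71 kb in PPARG (1.13 ± 0.08, SE). Stat5a, the factor it activates, had 0.546 and 1.11 kb against 4.62, 4.87 and 5.62 kb (-2.09 ± 0.21, SE). Akt1, a kinase of insulin signalling, had 1.497 and 1.68 kb against 4.79, 3.99 and 4.40 kb (-1.23 ± 0.12, SE), and over the gene body alone that difference was -0.13 and did not pass.

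The largest CEBPB shares of all loci included several loci with little H3K27ac and others with more than the median of all loci, 3.01 kb. Adgrv1, a very large adhesion receptor of hair cells and the retina, had 6.54 and 5.05 kb in CEBPB from 8 CEBPB-only sites and no PPARG peak. Cxadr, the receptor for coxsackievirus and adenovirus, had 6.07 and 5.41 kb against 0.312, 0.720 and 0.349 kb, and 4.26 kb of H3K27ac in cold. Trp63, a regulator of stratified epithelia, had 3.97 and 4.43 kb, with 0.885 kb in PPARG library 3 alone. Akr1b7, an aldo-keto reductase, and Itgb8, an integrin chain, had CEBPB-only sites (2 and 3) and no H3K27ac in cold. H3K27ac spanned 3.07 kb ± 0.0264 (SD, n = 3) of the Adgrv1 locus, beside 51.8 kb ± 3.41 (SD, n = 3) at Kdr.

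The counts of the other lists are read against 17.6% and 35.1% of all loci. They are given as larger in CEBPB, then larger in PPARG. The counts were 8 and 7 of 24 for thermogenesis and 7 and 6 of 20 for adipocyte identity. For nuclear receptor cofactors they were 3 and 3 of 12, and for the circadian clock 6 and 6 of 19. Without scaling these lists had, in that order, 3 and 11, 2 and 10, 2 and 5, and 1 and 9. With a fixed peak width they had 7 and 5, 4 and 2, 4 and 2, and 1 and 0. For de novo lipogenesis the scaled fit gave 5 and 6 of 18. It gave 5 and 8 of 20 for triglyceride synthesis, lipolysis and droplets, and 2 and 8 of 21 for glucose uptake and glycolysis. Without scaling these were 0 and 9, 1 and 10, and 1 and 12. With a fixed peak width they were 4 and 2, 3 and 2, and 2 and 5. For gluconeogenesis and amino acids the scaled fit gave 5 and 4 of 15, and for the integrated stress response 4 and 4 of 16. Without scaling these were 1 and 5, and 0 and 4. With a fixed peak width they were 2 and 3, and 5 and 1.

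**Figure D5:**
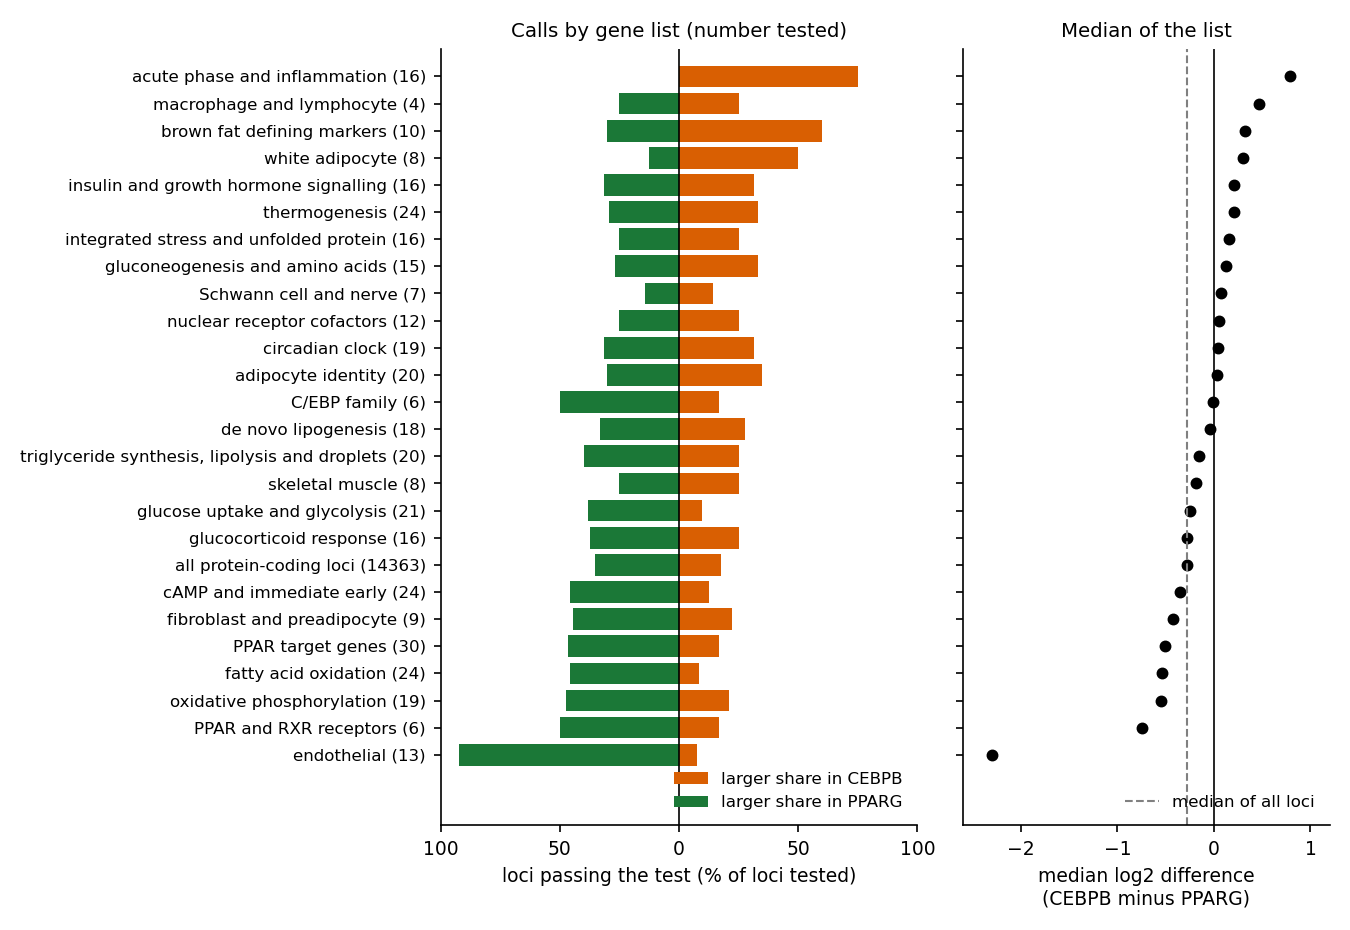
Left, share of the tested loci of each gene list (number tested in brackets) that passed at an adjusted p under 0.05, with a larger share in CEBPB (orange, right) or PPARG (green, left). Right, median log2 difference of each list, CEBPB minus PPARG, with the median of all loci (-0.28) dashed. The acute phase list lies highest at 0.78 and the endothelial list lowest at -2.30.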

How the data were processed

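Genome build GRCm38.p6 is named, per the submitters' processing notes, as are the peak caller MACS2 2.2.7.1 and the aligner BWA 0.7.17. These notes also name deepTools 3.4.3, Trim Galore 0.6.0 and SAMtools. Settings are not given in the sources used. Per the labels' protocols, tissue was fixed with 0.8% formaldehyde for 12 min, after 2 mM DSG for 25 min for all targets but H3K27ac. The authors deposited 1 peak list per library, with a fold enrichment (a ratio), a score, and −log10 p and −log10 q values per peak. The deposited score is derived from q and was not used. Depth is unknown from these lists.

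Peaks on chromosomes 1 to 19 and X were joined into sites and classes with Python 3.11.15 (numpy 2.4.6, pandas 2.3.3). Gene bodies (21631 protein-coding) came from the supplied RefSeq table, and 17274 of these genes had a start in the promoter table. Peaks of a library were merged, and each locus had 10 kb on each side. The covered length of a locus was divided by that of its library, brought back to kb, and given an offset of 500 bp. Loci covered in at least 2 libraries were tested on the log2 scale with limma 3.58.1 in R 4.3.3, by a two-sided moderated test with a trended prior. Benjamini-Hochberg adjustment ran over all loci. The step was tested on simulated data. Errors of log2 differences are standard errors (SE) of that fit.

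Named genes were the 10 largest differences in each direction, taken among loci that passed and whose groups did not overlap. Added to these were the genes of a list of key genes, and up to 3 per gene list with the smallest adjusted p. Named sites came from the 5 of best mean rank per class. Genes and sites that meet this rule are not all described. The members, the 25 gene lists and the tests were chosen with earlier results of these data known. Alternatives were another scaling, offset, locus, peak width, list length, q limit and overlap rule, a replicate block, and leaving out each library.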

Additional observations from a re-analysis of the deposited data

How the results depend on the processing

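The counts of sites per class stayed within 1.5 times of the reported ones under every alternative run. The share of sites with H3K27ac moved by more than the SD between H3K27ac libraries in these cases, given as shared, CEBPB-only and PPARG-only. It was 69.1%, 18.9% and 67.6% with regions held by 3 of 3 libraries, 79.8%, 30.6% and 76.9% with the Txnip WT cohort, and 60.9%, 15.2% and 64.7% at the summit. With PPARG sites in 3 of 3 libraries it was 79.5%, 27.5% and 77.4%. For CEBPB-only sites it was 26.5% at a −log10 q of at least 5, 27.5% at equal list length and 18.5% with no PPARG peak in any library. Without 1 library the ranges were 74.8% to 78.5%, 21.7% to 27.2% and 72.1% to 76.2%. CEBPB-only sites stayed lowest in all of these. Within 1 kb of a start lay 5.59% of CEBPB-only sites with stricter peaks, 6.203% at equal length, 5.48% with overlap of at least 50% of the shorter site and 3.82% with no PPARG peak. With 3 of 3 PPARG libraries the shares were 21.01%, 6.005% and 31.2%, and without 1 library 20.4% to 21.6%, 4.79% to 6.05% and 28.4% to 30.7%. The overlap difference was 5.50 points at equal length and 14.2 by summits.

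Loci with a larger share numbered 1174 in CEBPB without scaling. Without 1 library they numbered 1445 to 2256 in CEBPB, lowest without CEBPB library 1 (1445) and library 2 (1558), where the lone CEBPB library is assumed to vary like PPARG, and 4334 to 4713 in PPARG. Deviations of same-numbered libraries correlated at -0.00978 and -0.0261. With 2 CEBPB libraries their deviations mirror each other, so this check cannot decide whether same-numbered libraries belong together. With the replicate block 1957 and 4233 loci passed, and of 52 named loci 4 lost their call. Signs turned at Cebpb and Adipoq over gene bodies (0.0696, 0.49), at Cebpb, Fabp4 and Adipoq with a fixed width (0.39, 0.35, 0.0169), and at Cd36 without scaling (-0.24). The causes were not tested. Depth limits all of these lists in a way the files do not show.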
